A study of Mus musculus with 16 samples.

Results

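The 10 genes described here, *Muc2*, *Fcgbp*, *Clca1*, *Zg16*, *Tff3*, *Spink4*, *Agr2*, *Muc3*, *Muc13* and *Galnt12*, encode components of intestinal mucus or proteins that assemble them, and were taken by name from the transcript table of the ileum, where they account for 10 of 23299 genes and 26 of 59258 transcripts. Terminal ileum was collected from C57BL/6 wild-type mice and from *Tas1r3*-/- mice, which carry the Tas1r3tm1Csz deletion of the sweet and umami taste receptor subunit and had been backcrossed to C57BL/6. Animals were 5 to 6 weeks old at the start and received for 10 weeks either the normal diet D12450J with plain water (ND) or a Western diet (WD) made of the 60% high-fat diet D12492 with a 30% sugar solution. The labels give males and females in each group, and the 4 groups are named WT-ND, KO-ND, WT-WD and KO-WD, where KO is *Tas1r3*-/-. The knockout is germline and so not restricted to the intestine. The labels do not say whether each library came from 1 animal, so the p-values below measure the spread between these libraries, which may in part be technical.

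Goblet cells secrete the mucus that covers the intestinal surface. *Muc2* encodes the gel-forming mucin that is its scaffold, and *Fcgbp*, *Clca1* and *Zg16* encode proteins packed into the same granules, while transmembrane mucins such as the products of *Muc3* and *Muc13* form the glycocalyx of the epithelial cells themselves. In the small intestine the mucus layer is loose and is renewed continuously, together with the antimicrobial products of Paneth cells.

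Of the 16 deposited columns, 13 libraries were used: 4 of WT-ND, 2 of KO-ND (males), 4 of WT-WD and 3 of KO-WD, where both female columns were averaged as 1 library. The KO-ND female columns were left out because they equalled weighted means of the male columns in all but 17 and 18 transcripts. *Muc3-201*, the main transcript of *Muc3*, was among those exceptions, with 749.7 and 994 RPKM against the 657 and 638 that the weights gave. One read on a transcript of 1 kb was worth 0.0692 to 0.139 RPKM, and the total RPKM was 817011 to 819916 in ND libraries and 542371 to 672933 in WD libraries. *Tas1r3* itself was at 1.80 to 6.27 RPKM in wild-type libraries and at 0.000726 to 0.00452 RPKM in *Tas1r3*-/- libraries, and *Fabp6*, a marker of ileal enterocytes, was at 741 scaled RPKM or above in all 13 libraries.

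Levels are given as scaled RPKM, the summed RPKM of a gene divided by a factor per library that removes shifts shared by most genes. Without that scaling the median of all genes was −0.38 on the log2 scale in WT-WD against WT-ND and −0.35 in KO-WD against KO-ND. These shifts are as large as several of the differences described below, and a diet difference is therefore always meant relative to most other genes. A gene was called when its adjusted p was under 0.05 in limma's moderated test over 19042 genes, and a stricter rule asked for an adjusted p under 0.01 with a 2-fold change. The pairwise comparisons share groups, so their results are not independent of each other.

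All 10 genes passed the filter on low values. *Zg16* had the highest RPKM, at rank 9 of 19042 genes by its WT-ND mean, followed by *Tff3* at rank 28, *Fcgbp* at 60, *Muc2* at 80 and *Muc13* at 84. *Spink4*, *Clca1*, *Muc3* and *Agr2* ranked between 149 and 226. *Galnt12*, an enzyme that starts mucin O-glycosylation, stood apart at rank 5967, and rested on 88.1 to 408 reads of its main transcript against 6274 to 30123 reads for *Tff3*.

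The start-site regions of *Muc2*, *Fcgbp* and *Agr2* are shown because these 3 genes act in 1 product, the scaffold mucin, a protein bound to it and the disulphide isomerase that folds it. RefSeq promoters (GRCm38.p6) were matched for 5 of the 10 genes. Each window holds the 250 bases before the RefSeq start, 5′ to 3′ on the gene's strand, and capitals mark matches on either strand to TATAAA, to the E box CAGNTG, to the forkhead motif TGTTTNC, to the GATA motif AGATAA and to the CACCC box CACCC. The *Muc2* window lies at chr7:141690090-141690339 (+), that of *Fcgbp* at chr7:28070986-28071235 (+) and that of *Agr2* at chr12:35992675-35992924 (+).
Muc2: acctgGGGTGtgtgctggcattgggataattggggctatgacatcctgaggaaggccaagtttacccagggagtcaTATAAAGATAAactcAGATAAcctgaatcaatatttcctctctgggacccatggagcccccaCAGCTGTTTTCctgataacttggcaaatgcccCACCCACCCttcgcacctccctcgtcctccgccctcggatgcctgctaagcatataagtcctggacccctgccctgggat
Fcgbp: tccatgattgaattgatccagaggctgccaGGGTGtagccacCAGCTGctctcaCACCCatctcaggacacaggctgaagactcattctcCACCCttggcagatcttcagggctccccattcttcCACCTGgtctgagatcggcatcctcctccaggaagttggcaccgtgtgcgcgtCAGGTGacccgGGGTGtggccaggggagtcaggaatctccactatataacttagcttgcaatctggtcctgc
Agr2: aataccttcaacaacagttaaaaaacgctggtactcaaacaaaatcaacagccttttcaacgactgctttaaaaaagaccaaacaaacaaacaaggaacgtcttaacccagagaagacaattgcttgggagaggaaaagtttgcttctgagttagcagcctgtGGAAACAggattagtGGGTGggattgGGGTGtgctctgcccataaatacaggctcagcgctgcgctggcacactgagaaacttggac

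The *Muc2* window held 8 matches, of which TATAAA overlapped an AGATAA, the E box overlapped the forkhead motif and 2 CACCC boxes shared a base. The *Fcgbp* window held 7 matches, 3 of them E boxes and 4 of them CACCC boxes, and the *Agr2* window held 1 forkhead match and 2 CACCC boxes. Among 32851 promoter windows of the same length, an E box was present in 44.8%, a CACCC box in 52.0%, the forkhead motif in 17.8%, TATAAA in 12.4% and AGATAA in 9.99%. E boxes are bound by factors such as Atoh1, which directs secretory cells, but these matches are letters and not measured sites.

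**Figure D1:**
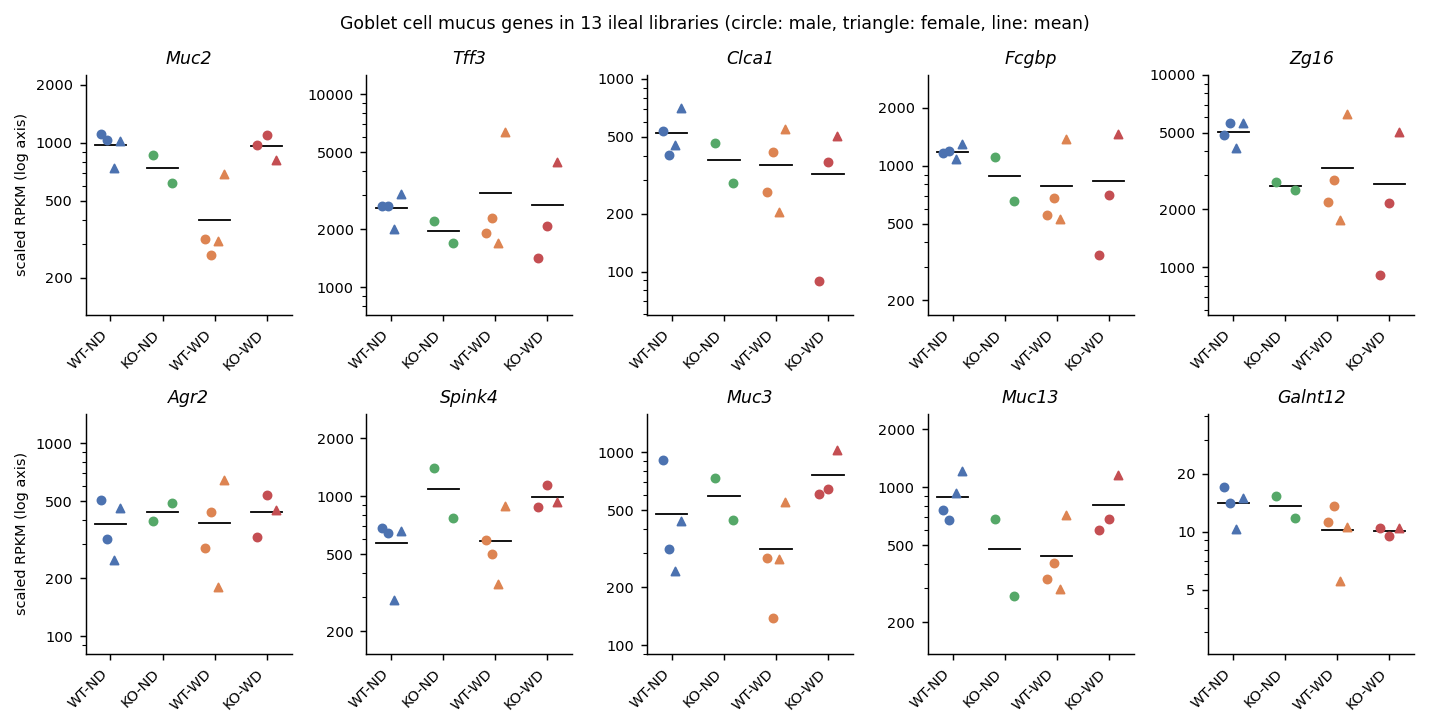
Scaled RPKM (log axis) of the 10 genes in the 13 libraries, with circles for males, triangles for females and a line at each group's mean. *Muc2* lies at 262 to 694 in WT-WD and at 813 to 1104 in KO-WD, and the WT-WD female 2 library is the highest of its group for 9 of the 10 genes.

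The first question was what the WD did to the mucus genes of wild-type mice. *Muc2* was 2.63-fold lower in WT-WD than in WT-ND and *Muc13* was 2.12-fold lower, whereas *Tff3*, *Agr2* and *Spink4* differed by at most 1.06-fold. None of the 10 genes was called in this comparison at either threshold, against 0.116% of all genes at an adjusted p under 0.05 and 0.00525% by the stricter rule. At an unadjusted p under 0.05, 2 of the 10 genes were lower, *Muc2* and *Muc13*, and 0 were higher, beside 8.63% and 6.9% of all genes. Both hold deposited values with more than 6 significant digits in WT-WD, which are described further on. By sign alone 8 of the 10 genes were lower and 2 higher, beside 48.2% and 51.8% of all genes, and the median log2 fold change was −0.60 for the 10 genes and 0.02 for all genes.

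*Muc2* was at 1111, 1038, 739.7 and 1018 scaled RPKM in WT-ND (males 1 and 2, then females 1 and 2) and at 318, 262, 312 and 694 in WT-WD. All 4 WT-WD libraries lay below all 4 WT-ND libraries, as for 6.3% of all genes (4.2% had all 4 higher, and none of the 10), with female 2 of WT-WD close to the lowest ND library. The log2 fold change was −1.40 (SE 0.30, limma, unadjusted p = 0.000524, adjusted p = 0.0868), and the exact two-sided permutation test gave p = 0.0286, the smallest that 4 against 4 libraries allow. Without the WT-WD female 2 library the log2 fold change was −1.70 with an adjusted p of 0.0334, and without scaling it was −1.86 with an adjusted p of 0.00309, so the call on *Muc2* depends on the setting.

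*Fcgbp*, whose product is a large protein bound to the mucin network, was at 1159.7, 1192, 1083 and 1292 in WT-ND and at 553, 678, 529 and 1379 in WT-WD. *Zg16*, which encodes a lectin that binds bacteria, was at 4846, 5646, 4167 and 5584 in WT-ND and at 2191, 2853, 1771 and 6229 in WT-WD. *Clca1*, a metalloprotease of the mucus, was at 538, 405, 456 and 702 against 259.9, 417, 203 and 552. For *Fcgbp* and *Zg16*, 3 of the 4 WT-WD libraries lay below the WT-ND range while female 2 was above it, and the *Clca1* groups overlapped. The log2 fold changes were −0.71 (SE 0.42) for *Fcgbp*, −0.80 (SE 0.51) for *Zg16* and −0.63 (SE 0.49) for *Clca1*, with adjusted p-values of 0.44 to 0.554. Without female 2 of WT-WD they were −1.02, −1.17 and −0.87.

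*Tff3*, the trefoil peptide secreted with *Muc2*, was at 2637, 2646, 2011 and 3030.2 in WT-ND and at 1909, 2274, 1695 and 6413 in WT-WD. Of its WT-WD libraries, 2 were below the ND range, 1 was inside it and female 2 was more than 2-fold above it, and the log2 fold change of 0.04 (SE 0.46) became −0.39 without that library and −0.42 without scaling. *Spink4*, a peptide of goblet and other secretory cells, had a log2 fold change of 0.03 (SE 0.36), which was −0.43 without scaling. *Agr2*, needed for folding the mucin, had one of −0.09 (SE 0.37; −0.55 without scaling), with values of 508, 319, 249 and 460.2 in WT-ND and 285, 442, 179 and 642 in WT-WD. The 95% intervals of *Tff3* (−0.96 to 1.03), *Spink4* (−0.74 to 0.80) and *Agr2* (−0.89 to 0.71) include differences in either direction.

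The transmembrane mucins differed from each other. *Muc13* was at 759, 676, 938 and 1209.9 in WT-ND and at 333, 405, 297 and 722 in WT-WD. Here 3 of the 4 WT-WD libraries were below the ND range and female 2 was inside it, with a log2 fold change of −1.08 (SE 0.37, limma, unadjusted p = 0.0122, adjusted p = 0.199). *Muc3* ranged from 242 to 909 in WT-ND and from 138 to 556 in WT-WD, and its log2 fold change of −0.58 (SE 0.46) was small beside that spread. *Galnt12* was at 17.1, 14.1, 10.3 and 15.0 in WT-ND and at 11.2, 13.6, 5.52 and 10.5 in WT-WD, overlapping groups with a log2 fold change of −0.49 (SE 0.25, limma, adjusted p = 0.361).

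The members were next compared with markers of other cell types, since fewer cells of a type and less RNA per cell cannot be told apart in whole tissue. The 7 markers of all epithelial cells were all lower in WT-WD than in WT-ND (median −0.72, 0 called), and their summed level was 4724 to 7888 scaled RPKM in WT-ND and 3384 to 5358 in WT-WD. Markers of B and plasma cells were higher for 6 of 6 genes (median 0.59, 0 called) and those of smooth muscle for 6 of 7 (median 0.37, 0 called). Adipocyte markers were lower for 5 of 5 (median −2.07, 0 called), and enterocyte markers were higher for 4 of 7 (median 0.09, 0 called). The part of tissue composition in the *Muc2* and *Muc13* values was not tested.

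The ratio between 2 members within a library does not depend on scaling. *Muc2* over *Tff3* was 0.336 to 0.421 in WT-ND, 0.367 to 0.394 in KO-ND and 0.108 to 0.184 in WT-WD, so that *Muc2* was lower relative to *Tff3* in every WT-WD library, female 2 included. *Muc2* over *Fcgbp* was 0.683 to 0.958 in WT-ND and 0.386 to 0.588 in WT-WD, again without overlap. *Tff3* over *Zg16* was 0.469 to 0.544 in WT-ND and 0.797 to 1.03 in WT-WD, a shift within the granule proteins in the other direction. This ratio was also above the WT-ND range in KO-ND (0.671 and 0.793) and in KO-WD (0.890 to 1.55), so it was not particular to the WD. *Fcgbp* over *Zg16* was 0.211 to 0.260 in WT-ND and 0.221 to 0.299 in WT-WD, where the groups overlapped. These ratios were chosen after the values had been seen and were given no test.

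**Figure D2:**
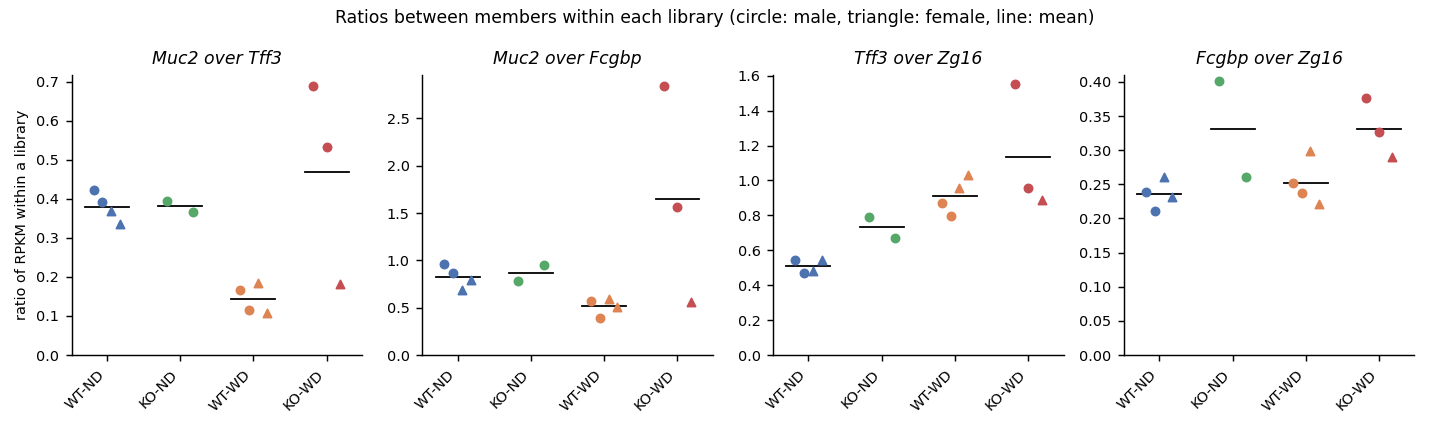
Ratio of RPKM between pairs of members within each library (linear axes from 0), with circles for males, triangles for females and a line at each group's mean. *Muc2* over *Tff3* lies at 0.108 to 0.184 in WT-WD and at 0.336 or above in both ND groups, and in KO-WD it spreads from 0.182 to 0.689.

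The second question was whether *Tas1r3*-/- mice on the WD differed from wild-type mice on the WD. *Muc2* was 2.61-fold higher in KO-WD, *Muc3* 2.63-fold higher and *Muc13* 1.89-fold higher, while *Fcgbp* and *Galnt12* differed by at most 1.03-fold. None of the 10 genes was called, against 0.0263% of all genes at an adjusted p under 0.05 and 0.0105% by the stricter rule. At an unadjusted p under 0.05, 3 of the 10 genes were higher and 0 lower, beside 1.64% and 1.01% of all genes, and those 3 were the mucins *Muc2*, *Muc3* and *Muc13*. They are also the only members holding deposited values with more than 6 significant digits, which are described further on. By sign alone 6 were higher and 4 lower, beside 47.6% and 52.4% of all genes, and the median log2 fold change was 0.18 for the 10 genes and −0.01 for all genes.

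*Muc2* was at 977, 1104 and 813 in KO-WD (males 1 and 2, then females), above all 4 WT-WD libraries. Relative to other members within a library, the groups overlapped. *Muc2* over *Tff3* was 0.182 to 0.689 in KO-WD and 0.108 to 0.184 in WT-WD, and *Muc2* over *Fcgbp* 0.557 to 2.84 and 0.386 to 0.588. The log2 fold change of *Muc2* was 1.39 (SE 0.33, limma, unadjusted p = 0.00104, adjusted p = 0.760), and the exact permutation p was 0.0571. The scaled KO-WD values of *Muc2* lay within the WT-ND range of 739.7 to 1111, a comparison in which diet and genotype both differ and which was not tested. Without the WT-WD female 2 library the log2 fold change was 1.69 with an adjusted p of 0.0437.

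*Muc3* was at 605, 643 and 1031 in KO-WD and at 285, 138, 279.9 and 556 in WT-WD. These groups of the summed gene did not overlap, as for 1.55% of all genes in this direction and 1.29% in the other. The log2 fold change was 1.40 (SE 0.49, limma, adjusted p = 1.00, exact permutation p = 0.0571). The main transcript of *Muc3* alone did overlap, at 500, 477 and 857 in KO-WD and at 272, 132, 273 and 544 in WT-WD. Its log2 fold change was 1.14 (SE 0.49) in the fit on single transcripts. The gap in the summed gene thus rested on the other *Muc3* transcript, described further on. *Muc13* was at 599.8, 683 and 1156 in KO-WD, with the lowest of them below the WT-WD female 2 library (log2 fold change 0.92, SE 0.40, limma, adjusted p = 1.00).

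The secreted partners of *Muc2* were not higher. *Zg16* was at 914, 2171 and 5029 in KO-WD, *Fcgbp* at 344, 707 and 1459 and *Clca1* at 89.6, 369 and 506. In all 3 genes male 1 was the lowest and the females the highest, and the KO-WD and WT-WD values overlapped. Their log2 fold changes were −0.42 (SE 0.55), −0.03 (SE 0.46) and −0.37 (SE 0.53), and each turned positive when KO-WD male 1 was left out (0.20, 0.49 and 0.38). *Tff3* had 1419, 2076 and 4478 and a log2 fold change of −0.15 (SE 0.50), which also turned positive without that library (0.22). *Spink4* was at 885, 1146 and 938 against 595, 503, 352 and 892 in WT-WD, and its log2 fold change of 0.83 (SE 0.38) had an unadjusted p of 0.0512 and an adjusted p of 1.00 in limma's test. *Agr2* and *Galnt12* had log2 fold changes of 0.31 (SE 0.40) and 0.05 (SE 0.27), the latter with values of 10.4, 9.45 and 10.4 in KO-WD.

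All 7 markers of Paneth cells were higher in KO-WD than in WT-WD (median 1.38, 0 called), and their summed level was 10957 to 23205 scaled RPKM in WT-WD and 33031 to 48909 in KO-WD. All 7 markers of enterocytes were lower in KO-WD (median −0.68, 0 called), while the 7 epithelial markers had a median of −0.07. Their part in the values of *Muc2*, *Muc3* and *Spink4* was not tested.

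**Figure D3:**
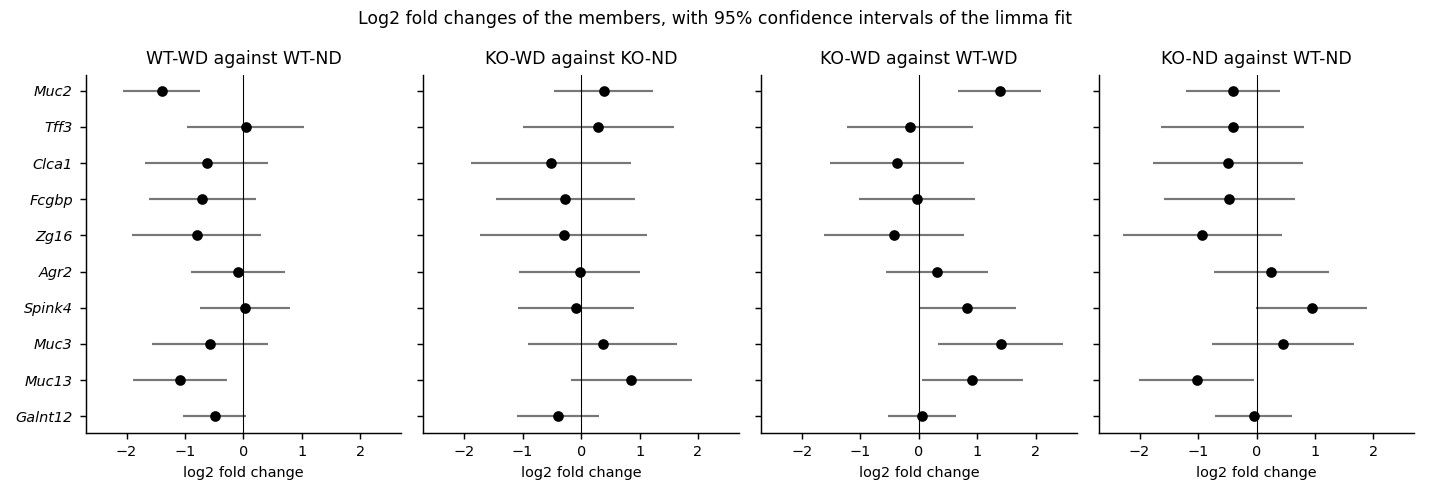
Log2 fold change of each gene in the 4 pairwise comparisons (points) with the 95% confidence interval of the limma fit (lines). The interval of *Muc2* runs from −2.05 to −0.74 in WT-WD against WT-ND and from 0.68 to 2.09 in KO-WD against WT-WD, while most other intervals include 0.

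On the ND, 2 male libraries of *Tas1r3*-/- mice were compared with 2 male and 2 female libraries of wild-type mice, so genotype and sex were not balanced. *Muc13* was 2.03-fold lower in KO-ND and *Zg16* 1.90-fold lower, whereas *Spink4* was 1.92-fold higher. None of the 10 genes was called, against 0.00525% of all genes at an adjusted p under 0.05, and at an unadjusted p under 0.05 *Muc13* was lower and 0 were higher, beside 2.62% and 2.11% of all genes. *Zg16* was at 2762 and 2525 in KO-ND, below all WT-ND libraries (13.3% of all genes), with a log2 fold change of −0.93 (SE 0.63). *Spink4* was at 1410.0 and 772 in KO-ND against 690.0, 649, 289.6 and 665 in WT-ND, above all of them (8.67% of all genes), with a log2 fold change of 0.94 (SE 0.44). *Muc13* was at 682 and 271, and its log2 fold change of −1.02 (SE 0.45) was −0.36 when KO-ND male 2, the lower library, was left out. Among males only, the log2 fold changes were −0.70 for *Muc13*, −0.95 for *Zg16* and 0.67 for *Spink4*. Paneth markers were higher for 7 of 7 genes (median 1.21, 0 called), but they were also lower in females than in males for 7 of 7 (median −0.68, 0 called). Their summed level was 61872 and 32451 in the KO-ND males, 32908 and 32097 in the WT-ND males and 10994 and 12260 in the WT-ND females, so KO-ND male 2 lay between the WT-ND males. Enterocyte markers were lower for 7 of 7 genes (median −1.06, 0 called) and smooth muscle markers higher for 7 of 7 (median 0.62, 0 called), and the part of these in the member values was not tested. The exact permutation test cannot go below p = 0.0667 with these 2 groups.

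Within *Tas1r3*-/- mice the WD against the ND gave no called gene among the 10, against 0.00525% of all genes, and 0 at an unadjusted p under 0.05, beside 5.49%. *Muc2* was at 862 and 622 in KO-ND and at 813 to 1104 in KO-WD, overlapping groups with a log2 fold change of 0.39 (SE 0.39), which was −0.02 without scaling and −0.38 without the transcripts with more than 6 digits described further on. *Muc13* had one of 0.86 (SE 0.48), which rested on KO-ND male 2 and was 0.19 without it. The other 8 genes had log2 fold changes of −0.52 to 0.37. Those of *Clca1*, *Zg16* and *Fcgbp* (−0.52, −0.29 and −0.27) were 0.24, 0.32 and 0.25 without KO-WD male 1 and −1.01, −0.91 and −0.79 without the KO-WD females. *Galnt12*, at 15.3 and 11.7 in KO-ND and 9.45 to 10.4 in KO-WD, was the 1 gene whose groups did not overlap, as 10.1% of all genes were lower in that way (10.8% were higher), and the smallest p that permutation allows here is 0.1.

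Whether the diet difference itself differed between genotypes was tested as an interaction. The log2 interaction was 1.78 for *Muc2* (SE 0.49, limma, unadjusted p = 0.00333, adjusted p = 1.00) and 1.94 for *Muc13* (SE 0.60, unadjusted p = 0.00709, adjusted p = 1.00), and 0.94 or less for the other 8 genes. At an unadjusted p under 0.05, 2 of the 10 genes had a positive and 0 a negative interaction, beside 0.719% and 0.709% of all genes, and by limma 0 of 19042 genes were called. Those 2, *Muc2* and *Muc13*, are among the members holding values with more than 6 digits. The *Muc13* value was 1.27 without KO-ND male 2 and 2.60 without KO-ND male 1, and that of *Muc2* was 1.55 and 2.02.

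Females were compared with males within the 3 groups that had both. None of the 10 genes was called, against 0.457% of all genes and 0.042% by the stricter rule, and 0 passed an unadjusted p of 0.05, beside 19.3%. *Fcgbp* (0.57, SE 0.33), *Zg16* (0.57, SE 0.41), *Tff3* (0.56, SE 0.36) and *Muc13* (0.55, SE 0.28) had the highest log2 differences of females over males, while *Muc2* was at 0.05 (SE 0.26). For *Zg16* the value was 0.15 without the KO-WD females. Among the other mucus genes listed further on, *Slc12a2*, an ion transporter, was called and was lower in females (log2 difference −0.84, limma, adjusted p = 0.0353).

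Within groups the members varied together. After the group means were removed, all 45 pairs of the 10 genes had a positive Pearson correlation over the 13 libraries, with a median of 0.56. The same was not computed for pairs of other genes, so this is not shown to be particular to the members. The highest were among *Tff3*, *Clca1*, *Fcgbp* and *Zg16* (0.79 to 0.96 for 6 pairs), and *Galnt12* had the lowest median over its pairs (0.32, from 0.19 with *Muc3* to 0.68 with *Spink4*). The mean deviation of the 10 genes was 0.85 on the log2 scale in WT-WD female 2 and 0.50 in the KO-WD females, and −0.57 in KO-WD male 1 and −0.56 in WT-WD female 1. All genes of a library share its scaling factor and its piece of tissue, and WT-WD female 2 had the lowest factor (0.693) and the highest sum of enterocyte markers (15223, against 2851 to 3952 in the other WT-WD libraries). The sum of smooth muscle markers was 1214 in WT-WD female 2 and 1608 in the KO-WD females. It was 6202 in KO-WD male 1 and 4673 in WT-WD female 1. The part of scaling and of tissue composition in the shared variation was not tested.

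The 8 genes most like the mean of the members, among 10894 others with a mean RPKM of at least 5, were *Txn-ps1*, *Sft2d2*, *Derl2*, *Cib1*, *Bspry*, *Ptdss1*, *Atg5* and *Grpel2*, with Pearson coefficients of 0.966 to 0.976 over the 13 libraries after group means were removed. *Derl2* is a component of endoplasmic reticulum-associated degradation and *Atg5* of autophagy, but whether the 8 genes share a function was not tested. *Atg5* is also in the list of mucus release genes used below.

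Other genes of the mucus pathway were read from lists, of which the genes named are those with the 2 highest and 2 lowest log2 fold changes at a mean RPKM of at least 5. Among 11 transcription factors and secretory stress genes of goblet cells, 10 were lower and 1 was higher in WT-WD than in WT-ND, and 0 were called (median −0.38). *Klf4*, a factor of goblet cell differentiation, was at 121 ± 17.1 scaled RPKM (SD, n = 4) in WT-ND and 71.5 ± 16.3 in WT-WD (log2 fold change −0.77, SE 0.29, limma, adjusted p = 0.234). *Spdef*, which drives goblet cell maturation, was at 29.6 ± 6.71 and 19.7 ± 2.84 (−0.56, SE 0.19, limma, adjusted p = 0.201). *Foxa3* and *Creb3l4* had the highest values, −0.05 and 0.15. In KO-WD against WT-WD, 9 of the 11 were higher (median 0.24, 0 called), from −0.05 for *Atoh1* and −0.01 for *Ern2* to 0.28 for *Creb3l4* and 0.36 for *Spdef*.

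Of 25 genes of mucin O-glycosylation, 16 were lower and 9 higher in WT-WD against WT-ND (median −0.33, 0 called). *Fut2*, the fucosyltransferase of the intestinal surface, and *B3gnt7*, which extends sugar chains, had the lowest log2 fold changes, −2.31 (SE 1.09) and −2.18 (SE 0.69, limma, adjusted p = 0.175), but their WT-ND libraries varied widely (20.5 ± 15.8 and 29.6 ± 21.5 scaled RPKM, SD, n = 4). *Galnt3* (0.23) and *C1galt1c1* (0.40), the chaperone of the core 1 synthase, were the highest. In KO-WD against WT-WD 10 of these genes were higher, 15 were lower and 0 were called (median −0.06), between −0.81 for *Gcnt4* and −0.43 for *B4galnt2* at one end and 1.39 for *B3gnt7* and 1.44 for *Fut2* at the other.

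Of 22 other goblet cell products, 16 were lower in WT-WD than in WT-ND, 6 were higher and 0 were called (median −0.37). *Retnlb*, an antibacterial resistin-like peptide, had the lowest value (−1.34, SE 1.09) and *Lrrc26*, a potassium channel subunit, the next (−0.67, SE 0.24, limma, adjusted p = 0.224). *Itln1* (0.54) and *Ang4* (0.98) were the highest, both also Paneth cell products and in the Paneth list. In KO-WD against WT-WD 12 were higher, 10 were lower and 0 were called (median 0.06), between *Bcas1* (−0.69) and *Scin* (−0.53) and *Rep15* (0.73) and *Retnlb* (1.87, SE 1.18).

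The 13 tested genes of mucus release, ion transport and processing had a median of −0.31 in WT-WD against WT-ND (11 lower, 2 higher, 0 called). *Mlph*, of granule transport, was at −0.76 (SE 0.25, limma, adjusted p = 0.189) and *Tgm2*, a transglutaminase, at −0.69 (SE 0.25), while the channel and transporter genes *Cftr* and *Slc12a2* were at 0.10 and 0.33. In KO-WD against WT-WD the median was −0.16 (3 higher, 10 lower, 0 called), with *Mep1a* and *Mep1b*, subunits of the protease meprin, at −0.81 and −0.63 and *Mlph* and *Tgm2* at 0.28 and 0.36. Of the other mucins, 2 of 9 were tested, and *Muc4*, a transmembrane mucin, had −0.71 (SE 0.41) with the diet and 0.65 (SE 0.44) with the genotype on the WD. *Muc1*, *Muc5b*, *Muc6* and *Muc16* stayed under 1 RPKM in all libraries.

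The transcripts behind the gene values were then examined, in a fit over 43552 transcripts that was added after the data had been seen. All 26 member transcripts were tested, and transcripts of 1 gene share sequence and reads. In WT-WD against WT-ND, 6 were lower and 1 was higher in all libraries without overlap, beside 5.16% and 4.32% of all transcripts. In KO-WD against WT-WD, 4 were higher and 0 lower in that way, beside 2.05% and 1.65%, and 0 were called, beside 0.0023% at both thresholds. In KO-WD against KO-ND, 6 were higher and 1 lower (10.8% and 11.3%), and 0 passed the stricter rule (0.00918%), and in KO-ND against WT-ND 10 were lower and 2 higher (10.6% and 9.02%). *Muc2* is represented by 6 partial transcripts, of which the 3′-most, *Muc2-207* and *Muc2-201*, gave 37.1 to 54.9% and 26.0 to 53.6% of its RPKM in WT-ND. All 6 were lower in WT-WD than in WT-ND, from −1.06 for *Muc2-207* to −2.49 for *Muc2-201*, and all 6 were higher in KO-WD than in WT-WD, from 1.34 to 2.27, with 0 of them called. In WT-WD male 2, *Muc2-201* was at 3.65 scaled RPKM against 98.7 to 216 in the other WT-WD libraries, although *Muc2-207*, which overlaps it, was at 221 there. *Muc2-204* was listed at the same RPKM to the last digit, 4.76, in WT-WD male 2 and female 1.

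The deposited values have at most 6 significant digits with 169 exceptions among 770354, and 11 of these exceptions were in members: 8 in *Muc2* (6 in WT-WD, 2 in KO-WD), 2 in *Muc3* and 1 in *Muc13*. Such a value was present in 70 of 23299 genes. Of the 11 in members, 5 had at most 6 digits when multiplied by 2. How these values arose was not tested. When the transcripts concerned were left out, the log2 fold change of *Muc2* was −2.15 in WT-WD against WT-ND and 1.64 in KO-WD against WT-WD, with adjusted p-values of 0.168 and 1.00 by limma, that in KO-WD against KO-ND turned from 0.39 to −0.38, and that of *Muc13* was −1.12 and 1.03. *Muc3* then consisted of *Muc3-202* alone and *Muc13* of *Muc13-202* alone. *Muc2* then consisted of *Muc2-201* and *Muc2-205*. Its values thus rested mainly on *Muc2-201*, which was at 3.65 scaled RPKM in WT-WD male 2, so they do not show that *Muc2* is robust to this choice.

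*Muc3-202*, a processed transcript of 955 bases at the 3′ end of *Muc3*, differed from the main transcript. It was at 0.102, 0.0837, 0.0449 and 0.398 scaled RPKM in WT-ND, at 18.6 and 1.99 in KO-ND, at 12.1, 6.60, 6.96 and 11.4 in WT-WD and at 105, 166 and 174 in KO-WD. The WT-ND values correspond to a few reads at most, all other libraries were higher, and all KO-WD libraries were above all others. It was higher in WT-WD than in WT-ND (log2 fold change 3.89, SE 0.49, limma, adjusted p = 0.00595) and in KO-WD than in KO-ND (4.39, SE 0.63, adjusted p = 0.0493), and its differences of 3.96 in KO-WD against WT-WD and 3.45 in KO-ND against WT-ND had adjusted p-values of 0.0687 and 0.412. It was the 1 member transcript of 26 that passed an adjusted p under 0.05 in the first 2 of these comparisons, beside 0.491% and 0.023% of all transcripts, and in the first it also passed the stricter rule, as 0.0735% of transcripts did. It made up 0.0113 to 0.0909% of *Muc3* RPKM in WT-ND and 16.9 to 25.9% in KO-WD. *Muc3* has a near neighbour of similar sequence, *Muc3a*, and whether reads were divided between them was not tested.

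The transcripts of *Fcgbp* differed in direction. The full-length transcripts *Fcgbp-201* and *Fcgbp-203* had log2 fold changes of −1.45 (SE 0.54) and −1.58 (SE 0.59) in WT-WD against WT-ND, with all WT-WD libraries below all WT-ND libraries, while *Fcgbp-202*, a processed transcript of 931 bases at the 3′ end, had one of 1.18 (SE 0.59), with 0 of them called. The ratio of *Fcgbp-202* to both full-length transcripts was 0.0922 to 0.389 in WT-ND, 3.18 and 0.616 in KO-ND, 0.307 to 4.74 in WT-WD and 2.18 to 7.68 in KO-WD. The log2 fold change of the summed gene, −0.71, lay between them.

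The balance of gene ends was therefore measured in genes outside the members that had a long transcript and a short one at either end. Over 264 short transcripts at the 3′ end of other genes, the median log2 ratio to the longest transcript, less the WT-ND mean, was −0.08 to 0.13 in WT-ND, 0.29 and 0.66 in KO-ND, −0.43 to 0.81 in WT-WD and 0.46 to 0.83 in KO-WD. Over 293 short transcripts at the 5′ end it was −0.01 to 0.03 in WT-ND, −0.32 and −0.13 in KO-ND, −0.40 to −0.13 in WT-WD and −0.57 to −0.21 in KO-WD. The 5′ values of WT-ND lay above those of all other libraries. The library with the lowest 3′ value, WT-WD male 2, had the lowest *Fcgbp-202* ratio of its group (0.307) but the highest ratio of *Muc3-202* to *Muc3-201* (0.0501, against 0.0209 to 0.0446). In *Muc2*, the ratio of the first 4 transcripts to the last 2 was 0.102 to 0.236 in WT-ND and 0.0437 and 0.104 in KO-ND. It was 0.0844 to 0.166 in WT-WD and 0.0896 to 0.409 in KO-WD. The part of this balance in the values of *Muc2*, of the *Fcgbp* transcripts and of *Muc3-202* was not tested.

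**Figure D4:**
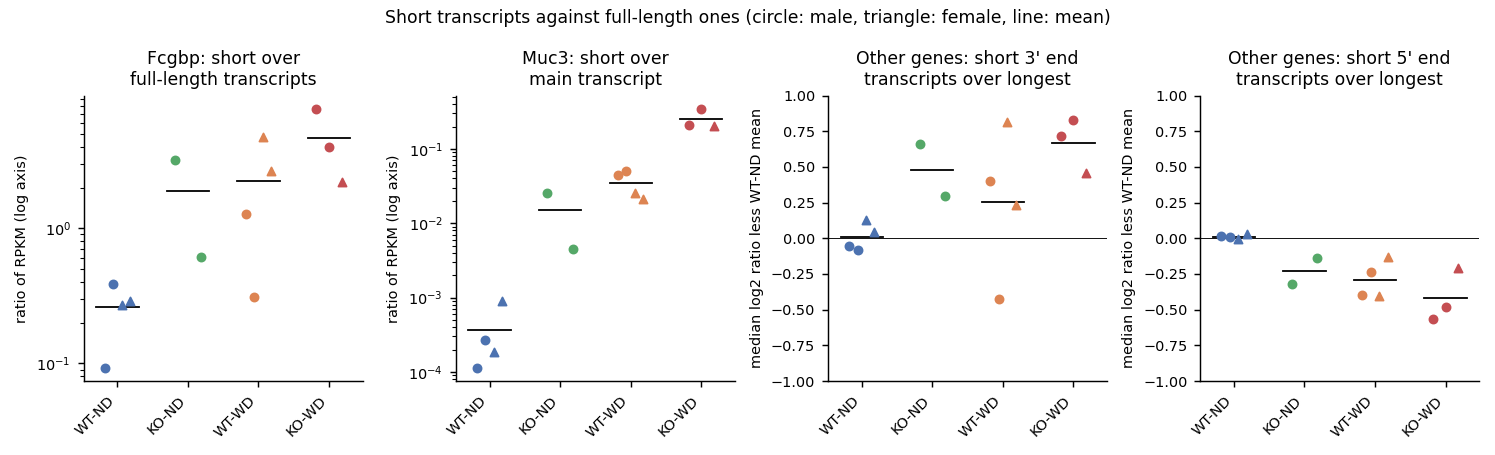
Ratio of *Fcgbp-202* to the full-length *Fcgbp* transcripts and of *Muc3-202* to *Muc3-201* (log axes), and the median log2 ratio of short 3′ and 5′ transcripts to the longest transcript over other genes, less the WT-ND mean. *Muc3-202* over *Muc3-201* is under 0.001 in WT-ND and 0.203 to 0.349 in KO-WD, and the 5′ measure is −0.13 or lower outside WT-ND.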

How the data were processed

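Ileal mRNA was isolated, depleted of rRNA and sequenced on an Ion Proton. Mapping with STAR and quantification against Ensembl transcripts were done by the authors in Partek Flow, and the submitters' processing notes name Partek and mm10. The deposited values are RPKM per transcript, normalised by the authors for length and mapped reads, in 1 table that matched the per-sample files. Here RPKM were summed per gene and divided by a trimmed-mean factor per library. The 19042 genes that reached 1 RPKM in 2 or more libraries were tested with limma 3.58.1 (R 4.3.3, mean-variance trend) on log2(scaled RPKM + 0.5), so that folds of low genes are understated. One fit held 13 libraries and 4 groups, and p-values were Benjamini-Hochberg adjusted over all genes. For the 10 genes in the 4 pairwise comparisons, exact two-sided permutation tests over libraries were run. The smallest p-values possible are 0.0286 (4 against 4, and 3 against 4), 0.1 (3 against 2) and 0.0667 (2 against 4).

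Low values gave the RPKM of 1 read, with 86.9 to 88.2% of values whole within 0.02 reads. The columns of KO-ND females were left out as weighted means of the males (weights 0.75 and 0.25, and 0.625 and 0.375). In KO-WD females, 2 times the female 2 value minus female 1 had at most 6 digits in 96.8% of transcripts. With male 1 in place of female 1 it was 61.6%. Female 2 was therefore treated as a mean of female 1 and another column, and both female columns were averaged. Transcript positions and lengths came from GENCODE M21 (98.2% of names matched) and promoters from RefSeq.

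Members and gene lists were chosen with earlier results of these data known. All 10 members are described, and of the other lists any called gene is named, with the 2 highest and 2 lowest at a mean RPKM of at least 5 in WT-WD against WT-ND and in KO-WD against WT-WD. The 8 genes most alike were ranked by Pearson correlation. No list was tested. Scripts were tested on simulated data. Python 3.11.15 with numpy 2.4.6, pandas 2.3.3, scipy 1.17.1 and matplotlib 3.10.9 was used for the rest. Alternatives were other scalings, filters, pseudocounts (0.1 and 1), sex as a covariate, a replicate block, subsets of libraries, each library left out, other ways to sum transcripts and reads in place of RPKM, the last and a fit on single transcripts added after seeing the data.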

Additional observations from a re-analysis of the deposited data

Results flagged for a closer look

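In 72 groups of 4 libraries (10 genes and 26 transcripts in WT-ND and WT-WD), 8 held a library whose distance from the other 3 exceeded Dixon's limit, while chance gives about 1 in 20 such groups. WT-WD female 2 was far above the other 3 libraries for *Muc2* (694 against 262 to 318 scaled RPKM) and for *Tff3* (6413 against 1695 to 2274), where gene and transcript *Tff3-201* are the same value. It also stood above them for *Fcgbp-206*, a retained-intron transcript (239.8 against 84.9 to 101), and for *Spink4-202*, a short processed transcript (79.4 against at most 3.56). In WT-ND, female 1 was low for *Spink4* (289.6 against 649 to 690.0). Female 2 of WT-ND was high for *Spink4-202* (65.6 against 1.71 to 9.67) and for *Muc3-202* (0.398 against 0.0449 to 0.102).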

How the results depend on the processing

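Each log2 fold change of the 10 genes in 6 comparisons was recomputed under the alternatives. Of 1700 values, 94 had another sign, 2 of them where the reported difference exceeded its standard error: *Fcgbp* in WT-WD against WT-ND was 1.14 when the highest transcript stood for each gene, because that transcript is *Fcgbp-202*, and *Muc3* was 3.87 without the transcripts with more than 6 digits, which left *Muc3-202*. Past an adjusted p of 0.05 came 0 members in all comparisons as reported; in WT-WD against WT-ND there were 4 without scaling (*Muc2*, *Muc13*, *Fcgbp* and *Galnt12*), and 1 each with all 16 columns as labelled, without the transcripts with more than 6 digits (*Muc3*) and with the replicate block (*Muc2*).

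Leaving out 1 library gave 0 to 1 members called in WT-WD against WT-ND and in KO-WD against WT-WD, the 1 being *Muc2* without WT-WD female 2. By the stricter rule (adjusted p under 0.01 and 2-fold), over all genes it gave 1 to 3 in WT-WD against WT-ND (1 as reported), 0 to 1 in KO-WD against KO-ND (0 as reported), 1 to 3 in KO-WD against WT-WD (2 as reported) and 6 to 13 between the sexes (8 as reported).

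At an adjusted p under 0.05 with no fold, the main fit gave 22 genes in WT-WD against WT-ND and 1 in KO-WD against KO-ND. It gave 5 in KO-WD against WT-WD, 1 in KO-ND against WT-ND and 87 between the sexes. Genes past the stricter rule in WT-WD against WT-ND were 539 without scaling, 33 with all 16 columns, 10 by the highest transcript, 4 with sex as a covariate and 0 in males only. In KO-WD against KO-ND they were 16 with all 16 columns and 1 with upper quartile scaling. In KO-WD against WT-WD they were 6 with all 16 columns, 4 without scaling, 1 at a mean RPKM of at least 5 and 1 with both groups alone. There they were also 1 by the highest transcript, 0 in males only and 0 without the transcripts with more than 6 digits. In KO-ND against WT-ND they were 1 at a pseudocount of 0.1 and 1 with all 16 columns. Between the sexes they were 13 without scaling, 2 at a mean RPKM of at least 5 and 0 with all 16 columns.

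Libraries of the same sex and number correlated between −0.15 and 0.57 in their deviations from group means. Other pairs lay between −0.63 and 0.38, leaving aside the KO-WD females. Those average both numbers, and pairs with them ranged from −0.57 to 0.63. Between WT-WD and KO-WD males the values were 0.57 and 0.42 for the same number and −0.11 and 0.03 otherwise. The main fit did not pair libraries by number, but these values do not settle whether they are paired. With the replicate block, 3 genes passed the stricter rule in WT-WD against WT-ND and 0 in KO-WD against WT-WD. At an adjusted p under 0.05 it changed no other call on a member than that of *Muc2*. The block fit left out the KO-WD females. The WT-ND values of *Muc3-202* are a few reads at most. The cause of these changes was not tested where no cause is named.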
